A study of Mus musculus with 20 samples.

Results

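The nuclear genes for the subunits of the mitochondrial respiratory chain were measured in mouse brain hemispheres after injury, with and without the peptide IDR1018. A gene was counted when the array's annotation gave its probe set a single symbol of the Nduf (complex I), Sdh (complex II), Uqcr (complex III) or Cox4 to Cox8 (complex IV) series, with the Ndufaf assembly factors left out. This gave 64 genes of the 19937 genes on the array, 33 of complex I, 4 of complex II, 8 of complex III and 17 of complex IV, and the pair Ndufa4 and Ndufa4l2, which carry complex I names although Ndufa4 is now placed in complex IV. A gene with several probe sets, of which there were 10, was represented by its brightest probe set, judged by the mean of the 20 arrays. The rule used names and mean levels and no comparison, but it was set with earlier results of these data known. Probe sets shared between symbols were not used, so Cox7c and Ndufb4 have no value, and subunits whose names fall outside the pattern, such as Cyc1 and Ndufab1, were put in a separate list of neighbouring genes.

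The study used 10 C57/Bl6 mice, and both hemispheres of each brain were put on separate arrays, which makes 20 arrays in 4 groups of 5. All animals had been sensitised with lipopolysaccharide (LPS), the endotoxin of Gram-negative bacteria, and then subjected to hypoxia-ischemia, a loss of blood flow and oxygen that injured the left hemisphere. The groups were the left and the right hemisphere of 5 mice without peptide and the left and the right hemisphere of 5 mice given IDR1018, a synthetic innate defence regulator peptide. The right hemisphere, labelled uninjured, belonged to the same treated animals, and no group without LPS and hypoxia-ischemia was analysed here. The dose and timing of LPS, peptide and tissue removal are not given in the sources used here. Values are deposited log2 expression levels, so a difference of 1 is a doubling, and every difference below is on that scale. A gene passed when its limma p-value, adjusted by Benjamini-Hochberg over 28192 probe sets, was below 0.05.

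The respiratory chain passes electrons from NADH (complex I) and succinate (complex II) through ubiquinone, complex III and cytochrome c to oxygen at complex IV, and the proton gradient built on the way drives ATP synthase. Complexes I, III and IV mix subunits encoded in mitochondrial DNA with subunits encoded in the nucleus, whereas complex II is wholly nuclear and is also the succinate dehydrogenase of the tricarboxylic acid (TCA) cycle. Brain tissue depends heavily on this pathway, and the transcription factors NRF1 and GABP (also called NRF2) are known activators of many of its nuclear genes. No mitochondrially encoded gene had a named probe set here, so all values concern the nuclear part.

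Promoters are shown for 3 members because 2 factors known to bind such promoters, NRF1 and GABP, had higher mRNA in the injured hemisphere (values below). Ndufa11 and Sdha had hemisphere differences of opposite sign, and Cox6a1 holds both motifs. The windows come from RefSeq on GRCm38.p6, run from 250 bases before to 50 bases after the annotated start and are written 5′ to 3′ on the gene's strand. Capitals mark matches on either strand to the NRF1 motif (GCGCA, then any base, then GCGC) or the GABP motif CCGGAAG.
Ndufa11, chr17:56717512-56717811, plus strand: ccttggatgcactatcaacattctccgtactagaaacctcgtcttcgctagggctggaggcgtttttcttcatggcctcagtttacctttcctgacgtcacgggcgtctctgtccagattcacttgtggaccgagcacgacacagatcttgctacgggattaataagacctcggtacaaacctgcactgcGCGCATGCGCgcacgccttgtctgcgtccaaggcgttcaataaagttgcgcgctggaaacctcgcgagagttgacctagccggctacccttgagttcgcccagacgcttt
Sdha, chr13:74350191-74350490, minus strand: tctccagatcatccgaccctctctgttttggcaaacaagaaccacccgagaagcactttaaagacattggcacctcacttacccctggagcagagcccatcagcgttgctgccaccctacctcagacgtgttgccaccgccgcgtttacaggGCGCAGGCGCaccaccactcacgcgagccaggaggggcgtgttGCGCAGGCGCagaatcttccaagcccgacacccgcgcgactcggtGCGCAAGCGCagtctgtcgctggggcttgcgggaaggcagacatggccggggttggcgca
Cox6a1, chr5:115348909-115349208, minus strand: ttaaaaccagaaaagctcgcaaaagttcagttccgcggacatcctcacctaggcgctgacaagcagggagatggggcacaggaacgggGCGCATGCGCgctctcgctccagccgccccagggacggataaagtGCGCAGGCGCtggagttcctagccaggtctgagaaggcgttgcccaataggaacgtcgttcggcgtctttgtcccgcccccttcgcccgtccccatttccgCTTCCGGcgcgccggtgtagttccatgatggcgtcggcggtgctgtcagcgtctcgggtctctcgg

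Of the 64 genes, 51 had such a window, 53 windows in all because Ndufa5 and Ndufa7 had overlapping pairs. The NRF1 motif was found in 11 of them (20.8%), against 4.60% of all 32851 promoter windows of the same length. The GABP motif was found in 11 (20.8%, against 8.86% of all windows) and the YY1 motif AAGATGGC in 7 (13.2%, against 2.75%). By contrast the hypoxia response core ACGTG stood in 22.6% of the members' windows and in 19.6% of all windows. Counted from the 5′ end of the window, of which 250 bases precede the start site, the NRF1 match of Ndufa11 began at base 191. Sdha had 3 matches, which began at bases 153, 196 and 241. A match describes the letters of the window and is not a measured binding site.

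Most members were well measured genes of this tissue. Their levels lay above the median of the control probe sets (6.81) for 63 of 64 genes, and 46 of 64 stood above the 75th percentile of the mean level of all genes. The exception was Cox7b2, the testis form of a complex IV subunit, at 5.31 to 5.71 over the 20 arrays. Within a group the standard deviation (SD) of a member had a median of 0.0644 and ranged from 0.0232 to 0.138. Array medians lay between 8.20 and 8.23 and arrays correlated with each other at 0.994 to 0.998. One array stood apart for these genes: the right hemisphere of replicate 1 without peptide was the highest of its group for 43 members and the lowest for 0, with a median deviation of 0.07 from the group mean.

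Without peptide, the injured left hemisphere differed little from the right in respiratory chain mRNA. Of the 64 genes, 2 were higher on the left (Ndufa11 and Ndufb2) and 1 was lower (Ndufa4l2), which is 4.69% of the members against 20.5% of all 19937 genes (10.5% higher and 10.1% lower) and 29.2% of the genes above the 75th percentile of level. None of the differences exceeded 1.17-fold. The difference was above 0 for 40 genes and below 0 for 24, with a median of 0.03, beside -0.01 for all genes, and 13 members had an unadjusted p below 0.05, a rule that 34.1% of all genes met. For 58 of the 64 genes the 95% interval of the difference lay wholly within 1.2-fold in either direction, as it did for 76.2% of all genes. When the 2 hemispheres of an animal were paired (replicate block), 5 members passed: Ndufa11, Ndufb2, Uqcr11 and Ndufa6 higher and Ndufa4l2 lower. With the mean of the control probe sets added to the fit as a covariate, the median turned to -0.01 and only Ndufa4l2 passed. That control mean was 7.01 to 7.11 on the left and 7.01 to 7.20 on the right. It was higher on the right in every animal but replicate 1. The covariate thus partly follows the side and can take up part of a hemisphere difference. Arrays numbered 1 to 10 all held left and 11 to 20 all held right hemispheres, so the effect of array order on these differences cannot be told apart from that of the side.

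**Figure D1:**
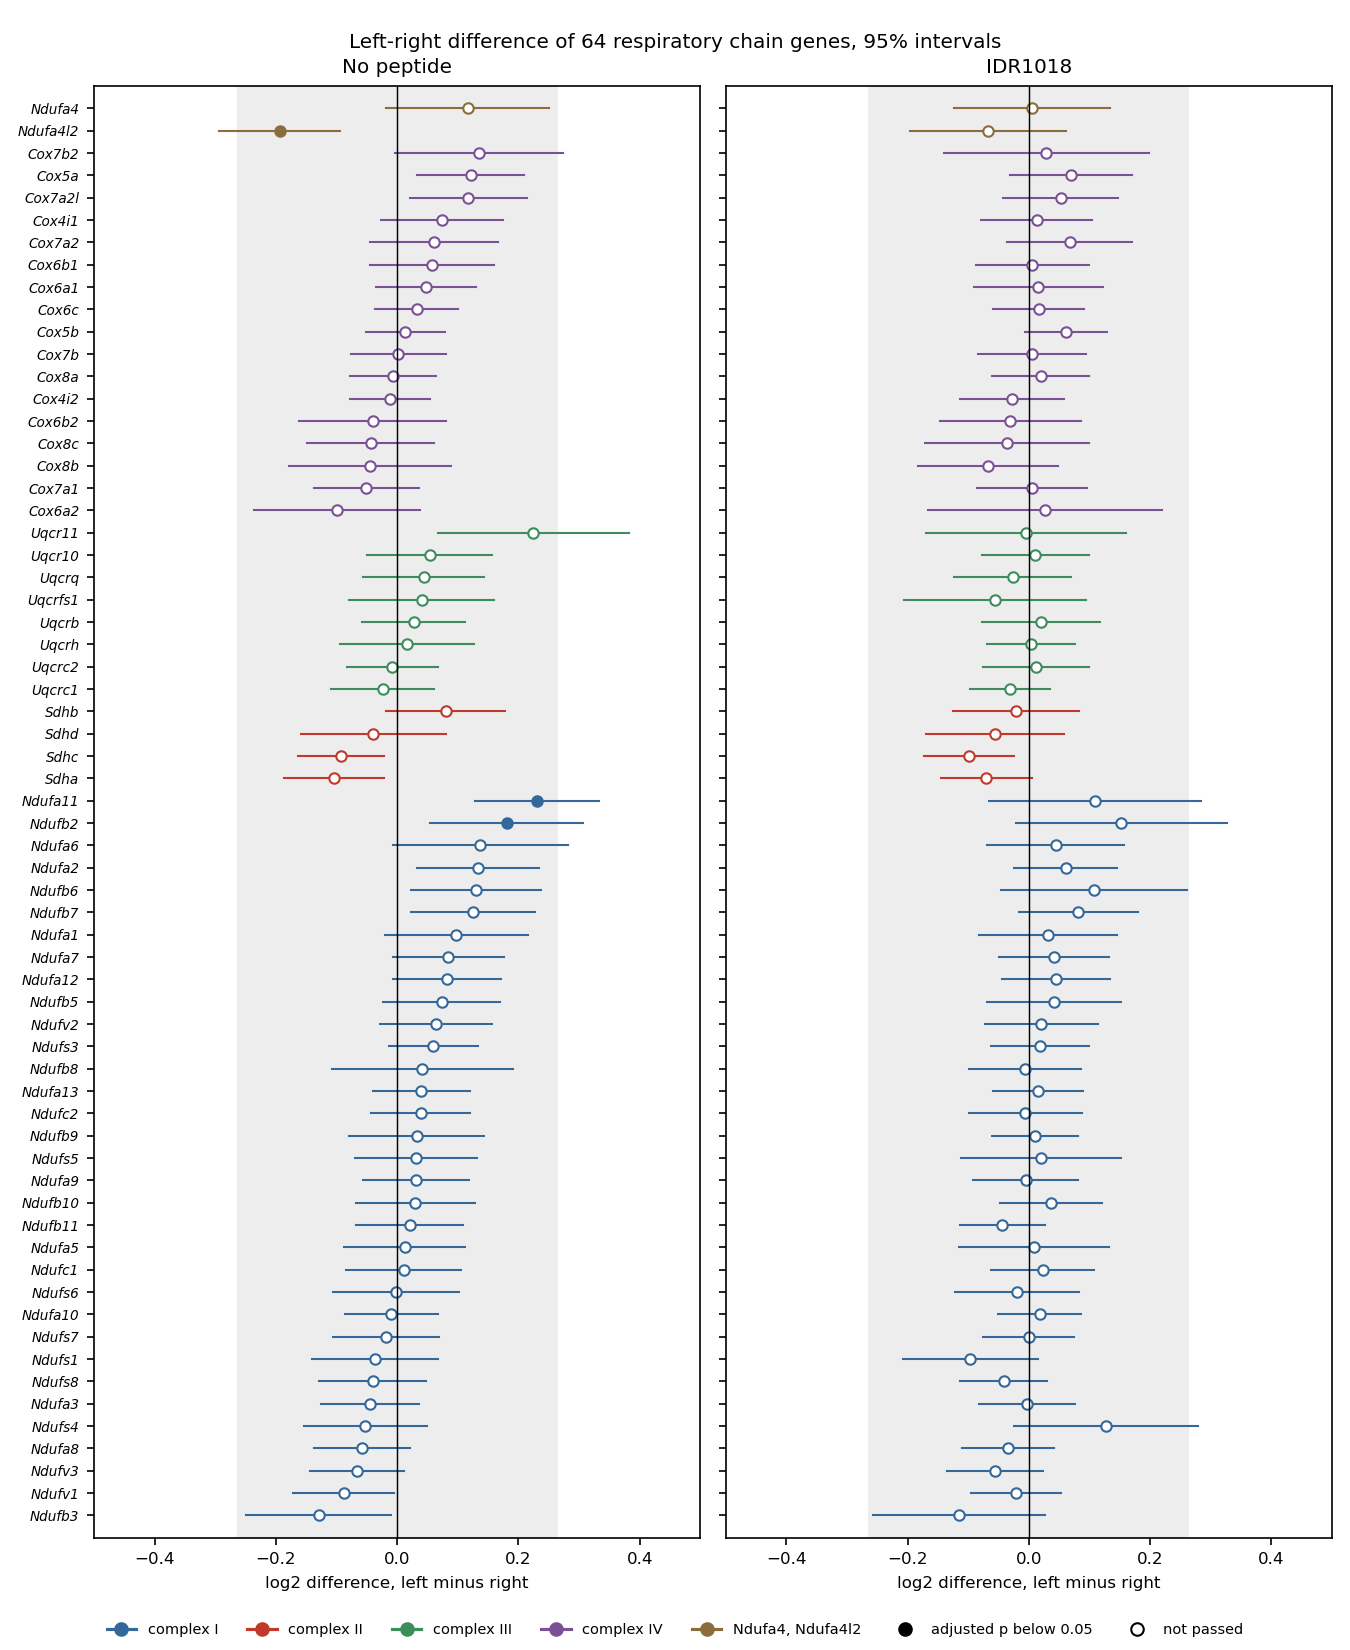
Left minus right log2 difference of each of the 64 genes (y axis, grouped by complex) without peptide (left panel) and with IDR1018 (right panel); points are limma estimates from 5 arrays a side, lines are 95% intervals, filled points passed at an adjusted p below 0.05, and the grey band spans 1.2-fold in either direction. Only Ndufa11, Ndufb2 and Ndufa4l2 are filled, all without peptide, and no point with IDR1018 is filled.

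Complex I held both genes that rose. Ndufa11, an accessory subunit of the membrane arm, stood at 11.76, 11.84, 11.84, 11.78 and 11.80 in the 5 left hemispheres and at 11.69, 11.53, 11.58, 11.44 and 11.62 in the right. Every left value lay above every right one. The difference was 0.23 ± 0.05 (standard error (SE), n = 5 per side; 1.17-fold; limma adjusted p = 0.00603), and the left side was higher in 5 of 5 animals. A second, dimmer Ndufa11 probe set gave 0.14 (adjusted p = 0.0446), and the mean of the gene's probe sets gave 0.18 (adjusted p = 0.0130). Probe set numbers of most members followed the chromosome order of their genes. Those used for Ndufa11, Ndufb11, Cox6c, Cox7a2l and Cox7b did not. For these genes the brightest probe set may read a copy elsewhere in the genome, which was not tested. Ndufb2, another accessory subunit, stood at 9.14, 9.26, 9.04, 9.07 and 9.03 on the left and at 8.96, 8.96, 9.06, 8.82 and 8.84 on the right, with some overlap. Its difference of 0.18 ± 0.06 passed only just (adjusted p = 0.0497), was positive in 4 of 5 animals and lost its call in 13 of 15 leave-one-out fits, where the adjusted p reached 0.152.

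The other 31 genes of complex I did not pass. Among the 6 measured core subunits, which carry the flavin and iron-sulfur centres or the ubiquinone site, the differences ran from -0.09 for Ndufv1, which binds NADH, to 0.06 for Ndufv2. Ndufs1, the largest iron-sulfur subunit, had a difference of -0.04 ± 0.05 (adjusted p = 0.660). The 27 accessory subunits had a median of 0.03, with 20 above 0; with the control covariate the median was -0.01, with 13 above 0. Ndufb6 was another gene whose sides did not overlap, with a difference of 0.13 and an adjusted p of 0.0905. The separation was slight, with a lowest left value of 12.5319 and a highest right value of 12.5313. Groups that did not overlap were seen for 5 of 64 members (7.81%) and for 17.7% of all genes. Ndufb8, a subunit commonly blotted as a marker of assembled complex I, differed by 0.04 (adjusted p = 0.731).

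Complex II had no gene past the threshold. Sdha and Sdhc were lower on the left in every animal. Such agreement was not particular to complex II. Among other members that did not pass, Ndufb3 was lower on the left in every animal. Ndufa1, Ndufa6, Ndufb5, Ndufb6, Ndufv2, Uqcr11 and Cox5a were higher on the left in every animal. The share of all genes with such agreement was not computed. Sdha, the flavoprotein that oxidises succinate, stood at 12.35, 12.21, 12.19, 12.21 and 12.22 on the left and at 12.37, 12.30, 12.33, 12.34 and 12.34 on the right. Of the left values, that of replicate 1 reached into the right group. The difference was -0.10 ± 0.04 (adjusted p = 0.0790). Sdhc, one of the pair of membrane anchors with Sdhd, stood at 11.05, 10.97, 11.00, 10.98 and 10.96 on the left and at 11.13, 11.07, 11.08, 11.09 and 11.07 on the right, without overlap. Its difference was -0.09 ± 0.03 (adjusted p = 0.0698). Sdhb, the iron-sulfur subunit, differed by 0.08 and Sdhd by -0.04, with adjusted p of 0.254 and 0.683. The median of the 4 genes was -0.07, and it remained below 0 with each array centred on its median (-0.08) and with that control mean in the fit (-0.07). The medians of complexes I, III and IV were 0.03, 0.03 and 0.01 and turned to -0.01, -0.01 and -0.01 with the control covariate.

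In complex III, which moves electrons from ubiquinol to cytochrome c, 0 of 8 genes passed. Uqcr11, a small subunit, came closest: 10.83, 10.64, 10.78, 10.72 and 10.96 on the left against 10.77, 10.46, 10.47, 10.47 and 10.64 on the right. The left side was higher in 5 of 5 animals, the groups overlapped, and the difference was 0.22 ± 0.07 (adjusted p = 0.0507). Pairing the hemispheres of an animal (replicate block) gave an adjusted p of 0.0186, and leaving out the right hemisphere of replicate 1 gave 0.0158. Uqcr11 passed in 7 of 23 alternatives. It did not pass with median centring, with the control covariate or with the mean of its 2 probe sets. A limma fit over both treatments gave an adjusted p of 0.170. The core proteins Uqcrc1 and Uqcrc2 and the Rieske iron-sulfur protein Uqcrfs1 differed by -0.02, -0.01 and 0.04.

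In complex IV, cytochrome c oxidase, 0 of 17 genes passed. Cox5a, a subunit on the matrix side, was higher in every left hemisphere (11.12, 11.21, 11.19, 11.16 and 11.17) than in the right ones (11.11, 11.01, 11.04, 11.12 and 10.95), by 0.12 ± 0.04, at an adjusted p of 0.0567. The lowest left value exceeded the highest right one by less than the rounding shown. Cox7a2l differed by 0.12 (adjusted p = 0.0890). The 10 forms common to most tissues had a median of 0.05, with 9 above 0, and the 7 forms typical of lung, heart, muscle or testis had a median of -0.04, with 1 above 0. That 1 was Cox7b2, which lay under the control median. The tissue forms were also the dimmer ones, with mean levels from 5.49 (Cox7b2) to 8.93 (Cox6a2). The common forms ran from 9.37 (Cox7a2l) to 13.61 (Cox6c), so form and level cannot be told apart here. With the control covariate the common forms had 6 of 10 above 0 and the tissue forms again 1 of 7. With IDR1018, 10 of 10 common forms and 3 of 7 tissue forms lay above 0, with medians of 0.02 and -0.03. Cox4i2, the oxygen-responsive form of subunit 4, differed by -0.01 (adjusted p = 0.839) and its common counterpart Cox4i1 by 0.07 (adjusted p = 0.302).

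Of the pair Ndufa4 and Ndufa4l2, the second was lower on the injured side. Ndufa4, a subunit found with complex IV, stood at 11.66, 11.47, 11.67, 11.56 and 11.56 on the left and at 11.56, 11.26, 11.49, 11.57 and 11.46 on the right, and its difference of 0.12 ± 0.06 did not pass (adjusted p = 0.224). Ndufa4l2, its hypoxia-inducible paralogue and a gene of brain mural cells, stood at 7.36, 7.47, 7.36, 7.39 and 7.52 on the left and at 7.71, 7.57, 7.61, 7.54 and 7.64 on the right, without overlap. It was lower on the left in 5 of 5 animals, by 0.19 ± 0.05 (fitted difference -0.19; 1.14-fold; adjusted p = 0.0128). Without both arrays of replicate 1 or of replicate 3 the adjusted p was 0.0556 or 0.0518. Of 6 markers of smooth muscle and pericytes, Pdgfrb (-0.22) and Myh11 (-0.15) were lower on the left (33.3%, against 10.1% of all genes). The other 4 did not pass. Of these, Acta2 (-0.21) and Rgs5 (-0.06) had differences below 0 and Tagln (0.13) and Kcnj8 (0.07) above it. The mean level of the list was 8.93 to 9.15 on the left and 9.08 to 9.16 on the right. Their part in the Ndufa4l2 difference was not tested. In whole hemispheres, fewer cells of a type and less RNA per cell cannot be told apart.

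**Figure D2:**
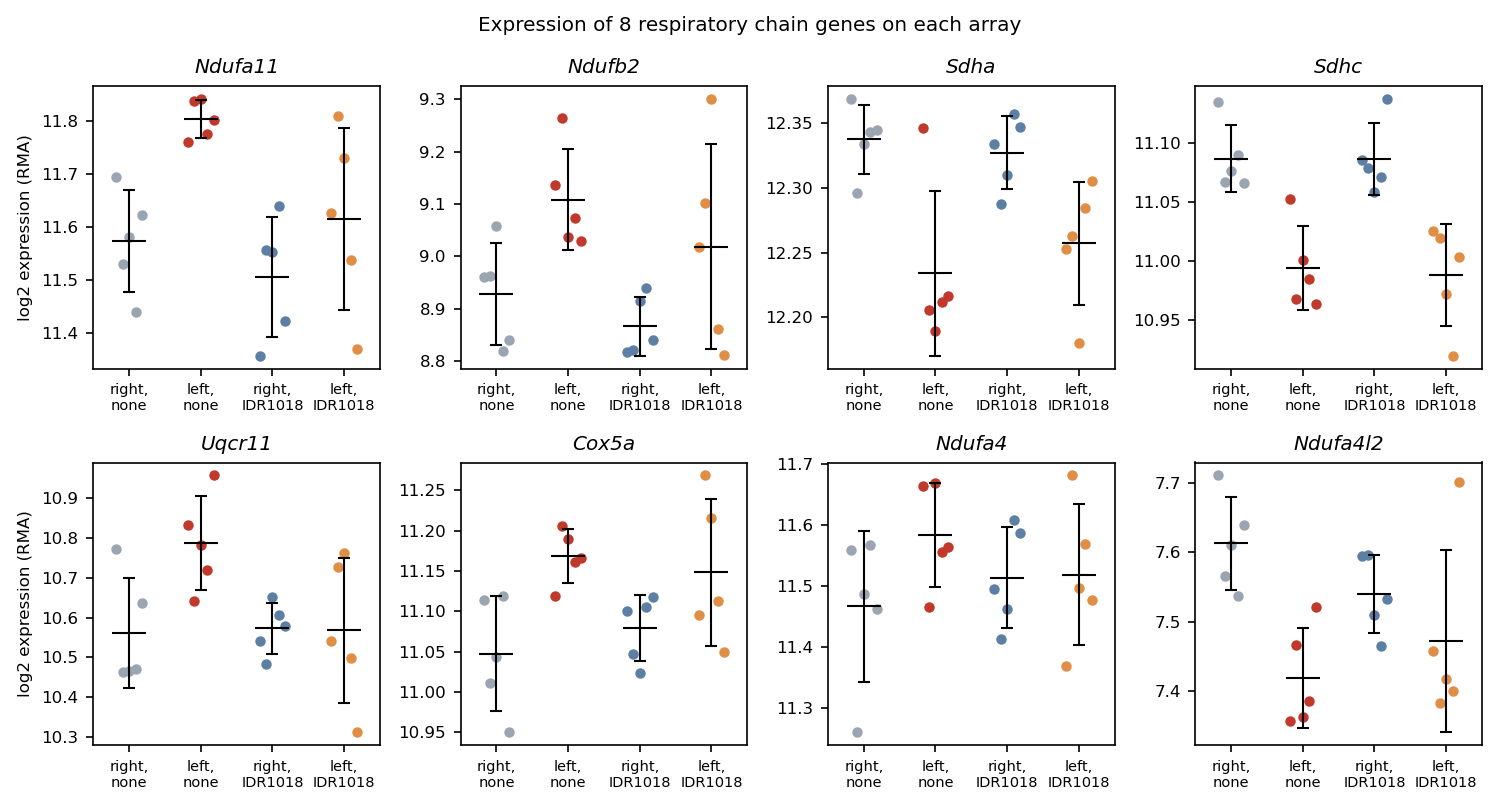
Deposited log2 expression (y axis) of 8 members on each of the 20 arrays in the 4 groups of hemisphere and treatment; points are arrays, the black bar is the mean and the whiskers are 1 SD (n = 5). Ndufa11 and Ndufa4l2 do not overlap between left and right without peptide. Cox5a parts there only slightly, at 11.1188 (lowest left) against 11.1184 (highest right). Sdhc does not overlap between the sides with or without peptide, and Ndufa11 and Ndufb2 spread widely in the left hemispheres with IDR1018.

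In mice given IDR1018, 0 of the 64 genes passed between left and right (limma, adjusted p below 0.05), against 17.1% of all genes (9.12% higher and 7.96% lower) and 22.8% of the genes above the 75th percentile of level, and 1 member had an unadjusted p below 0.05, against 31.4% of all genes. The median difference of the members was 0.01, and the 95% interval lay within 1.2-fold for 61 genes. Ndufa11 differed by 0.11 ± 0.08 (adjusted p = 0.415): the left hemispheres stood at 11.63, 11.81, 11.73, 11.54 and 11.37 and the right at 11.36, 11.56, 11.55, 11.64 and 11.42, and replicates 4 and 5 were higher on the right. Ndufb2 differed by 0.15 ± 0.08 (adjusted p = 0.235), and its left values ran from 8.81 to 9.30. Ndufa4l2 differed by -0.07 ± 0.06 (adjusted p = 0.504); the left hemisphere of replicate 5, at 7.70, lay above all other arrays with peptide. Uqcr11 differed by -0.0047 (adjusted p = 0.976).

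Sdhc again separated the hemispheres without overlap in these animals. It stood at 11.03, 11.02, 10.97, 10.92 and 11.00 on the left and at 11.09, 11.08, 11.06, 11.07 and 11.14 on the right. The difference was -0.10 ± 0.03 (adjusted p = 0.0748), and it was the only one of the 64 members (1.56%, against 16.1% of all genes) whose groups did not overlap. Sdha stood at 12.25, 12.26, 12.18, 12.28 and 12.31 on the left and at 12.33, 12.29, 12.31, 12.36 and 12.35 on the right, lower on the left in 5 of 5 animals, with a difference of -0.07 ± 0.03 (adjusted p = 0.205). All 4 genes of complex II had differences below 0 here.

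A fit over both treatments, added after the values had been seen, used all 20 arrays with the peptide as a term. In it 12 members passed (18.8%), 7 higher and 5 lower on the left, against 36.9% of all genes (17.5% higher, 19.4% lower). Sdhc had the smallest p, with a difference of -0.10 ± 0.02 (limma adjusted p = 0.000850), followed by Sdha at -0.09 ± 0.02 (adjusted p = 0.00557). Both were lower on the left in 10 of 10 animals, an agreement whose share among all genes was not computed. Ndufa4l2, Ndufb3 and Ndufv3 were the other lower genes. Ndufa11, Ndufb2, Ndufa2, Ndufb7, Ndufb6, Cox5a and Cox7a2l were higher, by 0.08 to 0.17. This fit takes the difference to be the same with and without peptide and counts both hemispheres of an animal as separate arrays. Some neuronal mRNAs moved with the side as well. Of 12 neuron markers Tubb3 (-0.39), Eno2 (-0.19) and Uchl1 (-0.15) were lower on the left without peptide (25%, against 10.1% of all genes). The other 9 did not pass, and 1 of the 12 had a difference above 0 (0.13). With IDR1018 1 of the 12 was lower (8.33%, against 7.96% of all genes). All 4 measured striatal neuron markers were lower on the left with and without peptide (100%, against 7.96% and 10.1% of all genes). Without peptide the mean of the neuron list was 12.49 to 12.52 on the left and 12.57 to 12.61 on the right. Microglial mRNA moved too. Of 5 measured markers Tmem119 (-0.52), P2ry12 (-0.47) and Csf1r (-0.21) were lower on the left without peptide (60%, against 10.1% of all genes). Cx3cr1 (-0.07) and Aif1 (0.05) did not pass. Tmem119 and P2ry12 were lower with IDR1018 as well (40%, against 7.96% of all genes). The mean of that list was 8.83 to 8.94 on the left and 9.01 to 9.25 on the right. The part of these cells in the Sdha and Sdhc differences was not tested.

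**Figure D3:**
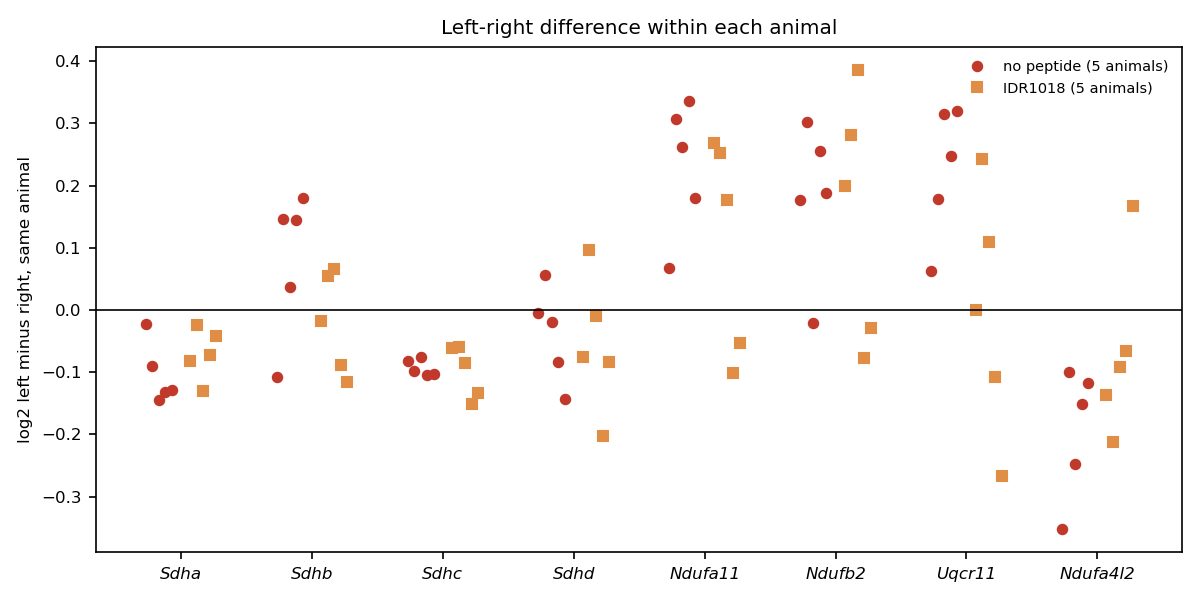
Left minus right log2 difference within each animal (y axis) for the 4 genes of complex II and for Ndufa11, Ndufb2, Uqcr11 and Ndufa4l2; circles are the 5 mice without peptide and squares the 5 with IDR1018. All 10 points of Sdha and of Sdhc lie below 0, whereas Ndufa11, Ndufb2 and Uqcr11 with IDR1018 lie on both sides of it.

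IDR1018 itself was compared with no peptide within each hemisphere. In the left hemisphere 0 of 64 members and 0% of all genes passed (limma), and 2 members had an unadjusted p below 0.05, against 4.09% of all genes, so the members do not stand out: Uqcr11 with a difference of -0.22 ± 0.08 and Ndufa11 with -0.19 ± 0.07 (both adjusted p = 0.999). The left values of Uqcr11 with peptide were 10.54, 10.73, 10.76, 10.50 and 10.31, which overlap those without. The median of the members was -0.01, and the 95% interval lay within 1.2-fold for 61 of them. In the right hemisphere 0 of 64 members and 0% of all genes passed, and 1 member, Ndufs4, a small complex I subunit mutated in Leigh syndrome, had an unadjusted p below 0.05 (difference -0.12 ± 0.05), against 3.79% of all genes. The interval lay within 1.2-fold for all 64 members on that side. No member had groups that did not overlap in either hemisphere, against 0.577% and 0.517% of all genes.

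The peptide's effect on the left-right difference itself was tested as an interaction over all 20 arrays. Of the 64 members 0 passed (limma, 0% of all genes), and 0 had an unadjusted p below 0.05, against 2.53% of all genes. The largest values were -0.23 ± 0.11 for Uqcr11, whose left-right difference was 0.22 without and -0.0047 with peptide, and 0.18 ± 0.09 for Ndufs4. For Ndufa11 the interaction was -0.12 (95% interval -0.32 to 0.08), so the call without peptide and its absence with peptide are not shown to differ. The 95% interval lay within 1.2-fold for 55 members. The comparisons share arrays: each group entered a hemisphere and a peptide comparison.

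Neighbouring mitochondrial genes were read the same way, beside 10.5% of all genes higher and 10.1% lower without peptide and 9.12% and 7.96% with it. Of 16 ATP synthase genes, 0 passed without peptide and 0 with it (limma, adjusted p below 0.05), with 1 and 0 at an unadjusted p below 0.05. Among 14 electron carrier and related genes, 2 were higher (14.3%) and 2 lower (14.3%) without peptide: Etfa (0.17), which feeds electrons from fatty acid oxidation, and cytochrome c (Cycs, 0.12) on one side, and the ubiquinone synthesis genes Coq8a (-0.33) and Coq2 (-0.12) on the other. Cycs and Coq2 each lost the call in 12 of 15 leave-one-out fits, so that either count fell to 1, and with the hemispheres of an animal paired (replicate block) their adjusted p was 0.0646 and 0.0666. Coq8a kept it in all 15 and was again lower with IDR1018 (-0.21, adjusted p = 0.00628). Of 16 genes of the TCA cycle and pyruvate dehydrogenase, Fh1 (-0.18), which hydrates the fumarate made by complex II, and Ogdh (-0.17) were lower in the left hemisphere without peptide (12.5%). Both passed with it too (-0.17 and -0.14), but there Fh1 lost the call in 12 of 15 leave-one-out fits and Ogdh in 2 of 15, and the count of 2 ran from 0 to 2. The replicate block gave Ogdh an adjusted p of 0.0505 with peptide. Without peptide Ogdh lost the call in 2 of 15 such fits and Fh1 in 0.

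Of 38 assembly factors 5 were higher (13.2%) and 0 lower without peptide, among them Cox11 (0.22) and Cox20 (0.20), both of complex IV, Ndufaf6 (0.24) of complex I and Surf1 (0.13) of complex IV. The 5 ran from 0 to 6 over the leave-one-out fits and were 1 with the control covariate and 3 with median centring. Surf1 lost the call in 10, Cox20 in 7, Ndufaf6 in 4 and Cox11 in 1 of 15 leave-one-out fits, and Surf1 had an adjusted p of 0.0602 with the replicate block. Cox11 and Cox20 passed with peptide in all 15 such fits. In the fit over both treatments 8 assembly factors were higher and 6 lower on the left, beside 17.5% and 19.4% of all genes. Of 77 mitochondrial ribosomal protein genes 14 were higher (18.2%) and 4 lower (5.19%) without peptide, with Mrps6 at 0.34. The 14 ran from 6 to 18 and the 4 from 1 to 4 over the leave-one-out fits, and the 14 became 7 with the control covariate and 33 over both treatments.

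The transcription factors named for these promoters were higher on the injured side. Of 19 regulators, 6 were higher and 2 lower without peptide. Nrf1 stood at 9.19, 9.38, 9.21, 9.30 and 9.16 on the left and at 8.89, 8.82, 8.96, 8.84 and 8.84 on the right, a difference of 0.38 ± 0.05 (limma adjusted p = 0.000454). Gabpa and Gabpb1, which form GABP, differed by 0.34 and 0.31, Tfb2m by 0.46 and Yy1 by 0.25, and the mitochondrial RNA polymerase Polrmt was lower, at -0.26. Ppargc1a, the coactivator of mitochondrial biogenesis, differed by -0.05 (adjusted p = 0.385). With IDR1018, Nrf1 (0.42), Gabpa (0.25), Gabpb1 (0.32) and Yy1 (0.27) were higher again. Among the members, the 10 genes with an NRF1 motif had a median difference of 0.01 without peptide, with 5 above 0 and 1 past the threshold (Ndufa11). The 11 genes with a GABP motif had a median of 0.06, with 8 above 0 and 0 past it, and the 26 genes with none of the NRF1, GABP and YY1 motifs had 0.04, with 1 past it (Ndufb2).

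Of 13 genes linked to hypoxia or inflammation and to respiration, 4 were higher on the left and 0 lower. AA467197, the mouse gene of the Ndufa4 paralogue NMES1, had the value 6.89, 6.77, 7.15, 6.78 and 7.07 on the left and 6.41, 6.28, 6.40, 6.29 and 6.30 on the right. The difference was 0.60 ± 0.07 without peptide (limma adjusted p = 0.000385) and 0.44 ± 0.08 with it (adjusted p = 0.00414), but this gene lay near the level of the control probe sets: all its right-hand values, 2 of the 5 left values without peptide and 3 of the 5 with it were under their median of 6.81. Acod1, which makes itaconate, an inhibitor of complex II, was higher by 0.47 and 0.45, Hif1a by 0.19 and 0.16, and Pdk4, which restrains pyruvate dehydrogenase, by 0.68 and 0.47. With IDR1018 the calls of Hif1a and Acod1 were lost in 7 and 4 of 15 leave-one-out fits. For scale outside the mitochondrion, 26 of 70 cytosolic ribosomal protein genes (37.1%) and 10 of 40 proteasome genes (25%) were higher on the left without peptide. Of all genes 10.5% were higher. None of either list was lower, against 10.1% of all genes.

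**Figure D4:**
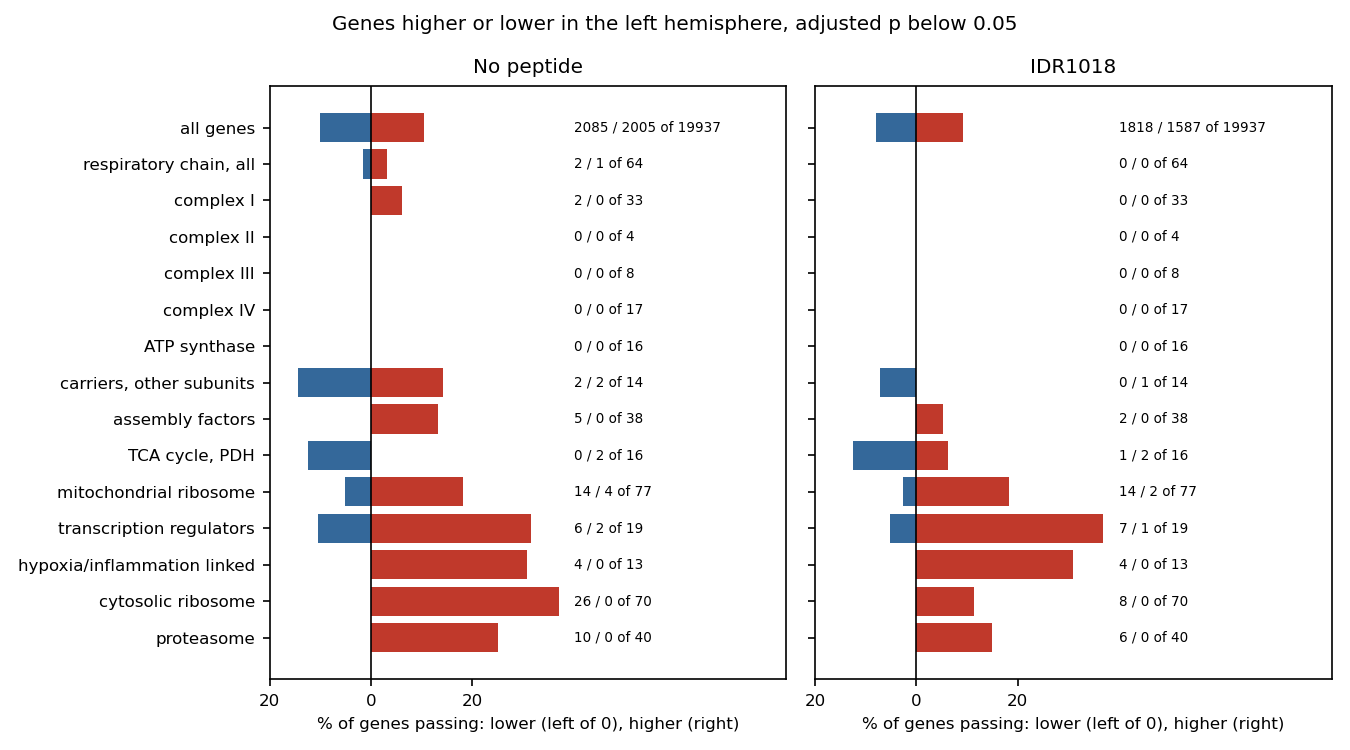
Share of genes (x axis, percent) higher (red, right of 0) or lower (blue, left of 0) in the left than in the right hemisphere at an adjusted p below 0.05, for all genes, for the 64 respiratory chain genes, for each complex and for neighbouring lists, without peptide (left panel) and with IDR1018 (right panel); the text gives the counts higher and lower of all in the list. The respiratory chain genes show 2 higher and 1 lower of 64 without peptide and 0 with it, beside 2085 higher and 2005 lower of 19937 for all genes without peptide.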

How the data were processed

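RNA of 20 brain hemispheres was hybridised to 20 Affymetrix arrays, and the authors deposited log2 expression values that, per the submitters' processing notes, came from RMA in affy 1.38.1; background correction, quantile normalisation and probe summary are therefore theirs, the genome build is not given in the sources used here, and quantile normalisation removes a shift common to all genes. Of 34760 probe sets, 6568 control probe sets were left out and 28192 tested; 21640 had 1 symbol, 1321 several and 5231 were not listed in the platform annotation, and all 64 members matched a RefSeq gene. The members, the lists of neighbouring and marker genes and the tests were chosen with earlier results of these data known.

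Each comparison was fitted with limma 3.58.1 (lmFit and eBayes, R 4.3.3) on its own 2 groups, the interaction on all 20 arrays, with Benjamini-Hochberg adjustment over all tested probe sets and a threshold of 0.05. The script was tested on simulated data. Left and right arrays with the same replicate number carry 1 specimen number in the labels and thus come from 1 animal; their deviations from the group means correlated at 0.06 to 0.25 without and 0.04 to 0.24 with peptide. The fit with that number as a replicate block was an alternative, because the main design was fixed without it. Numbers shared between mice with and without peptide pair no animals. The text names members past the threshold, up to 5 each way by smallest p where under 3 passed, a panel of 24 subunits, and up to 4 genes of each neighbouring list by smallest p without peptide; other names were chosen after their values were seen. Alternatives were median centring of each array, the mean control probe set level as a covariate, a trended robust prior, a filter on dim probe sets, the mean of a gene's probe sets, all 4 groups in 1 fit, and leaving out arrays or animals. Precision is limited by 5 arrays a group. Promoter windows are RefSeq's (GRCm38.p6).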

Additional observations from a re-analysis of the deposited data

Results flagged for a closer look

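A single array lay far from the other 4 of its group, by Dixon's ratio of gap to range above 0.71, for 9 of the 156 gene and group pairs tested (5.77%), near the 1 in 20 that chance alone marks, so their number does not stand out. The values follow as a description. Without peptide on the left, Sdha in replicate 1 stood at 12.35 with the next array at 12.22, Cox7a1 in replicate 5 at 8.30 (next 8.21), and Ndufv3 in replicate 4 at 9.77 (next 9.83). Replicate 2 of that group was low for Cox4i2, at 8.00 (next 8.04), and for Uqcrfs1, at 9.71 (next 9.79). Without peptide on the right, Cox4i1 in replicate 1 stood at 11.74 (next 11.56) and Ndufs1 in replicate 2 at 10.76 (next 10.93). With IDR1018 on the left, replicate 5 was high for Ndufa4l2, at 7.70 (next 7.46), and low for Ndufb3, at 8.85 (next 9.12). Without both arrays of replicate 1 Sdha passed between the hemispheres without peptide, at -0.12 (limma adjusted p = 0.0414).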

How the results depend on the processing

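Without peptide the number of members higher on the left, 2, became 1 with median centring of each array, 0 with the control probe set level as a covariate, 6 with the trended robust prior, 5 without dim probe sets, 4 with the replicate block, 4 with all 4 groups in 1 fit and 7 over both treatments, and it ran from 1 to 6 over the leave-one-out fits. The number lower, 1, became 2 with median centring, 3 with the trended robust prior, 2 without dim probe sets, 3 with all 4 groups in 1 fit and 5 over both treatments, and ran from 0 to 3 over the leave-one-out fits. The 6 came without the right hemisphere of replicate 1 or without both its arrays, the 3 without the left hemisphere of replicate 1 and the 0 without both arrays of replicate 3, and Ndufb2 lost its call in each fit that left out 1 array, except the right one of replicate 3. Ndufa11 passed in 22 and Ndufa4l2 in 21 of 23 alternatives; the exception for Ndufa11 was the control covariate (adjusted p = 0.0506). With IDR1018 the number lower, 0, became 1 (Sdhc) with the trended robust prior, without dim probe sets and with all 4 groups in 1 fit. The probe sets past the threshold over the whole array without peptide, 5088, became 3193 with the control covariate and 9354 over both treatments, and ran from 2698 to 4907 over the leave-one-out fits; with IDR1018 they were 4184 and ran from 2323 to 3729. For IDR1018 against none, the left count of 0 ran from 0 to 1 and the right count of 1 from 0 to 1 over the leave-one-out fits, and the right count became 0 with the control covariate, with the replicate block and with all 4 groups in 1 fit. The median difference of the members moved in no alternative by more than 1 SD between animals (0.0475 without peptide). That limit was wider than the median itself (0.03 without peptide), so a full loss of the difference could not count as a move. Within it, the median without peptide turned to -0.01 with the control covariate. Of 4653 values of single genes under an alternative, 122 lost and 30 gained a call, no called value changed sign, and 189 values that passed neither way changed sign. The cause of these changes was not tested.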
